A study of Mus musculus with 15 samples.

Results

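Transthyretin (Ttr), prostaglandin D2 synthase (Ptgds) and 8 further genes that are known from the choroid plexus or from the dorsal midline next to it (Folr1, Clic6, Aqp1, Prlr, Enpp2, Msx1, Msx2 and Tmem72) were followed through 15 RNA-Seq libraries of mouse optic tissue grown in culture. The 10 genes were looked up by symbol, and each was found as 1 of the 23244 entries of the expression table. The set was chosen by the normalised values of Ttr and Ptgds, which were high in Day 15 +Wnt tissue, with the other 8 genes added for their link to the choroid plexus. For that reason every comparison that involves Day 15 +Wnt is given below as a description with no test for these 10 genes, and tests are given for the 5 comparisons among the other groups.

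The tissue came from SFEBq, in which dissociated mouse embryonic stem cells are quickly reaggregated in floating culture without serum (here 3000 cells a well, with 4% Matrigel from Day 2) and form optic epithelium at their surface. All groups derive from EB5 cells that carry GFP in the eye field gene Rx on 1 allele (Rx::GFP+/-), kept beforehand in medium with CHIR99201 and a MEK inhibitor, and the study lists 1 cell line as the source of all 15 libraries. At Day 10 the GFP-positive epithelium was cut out with forceps and not sorted, so neighbouring tissue of an aggregate could be included. It was either collected at once (Day 10 Rx::GFP+) or grown on in retinal maturation medium. The +Wnt groups received CHIR99201, which inhibits GSK3 and so raises Wnt/β-catenin signalling, at 3 µM for 24 h and at 1 µM afterwards. The +Fgf groups received 5 ng/ml bFgf together with 10% FBS, so that serum and Fgf cannot be told apart in any +Fgf value. Tissue was collected at Day 12 and Day 15, with 3 replicates in each of the 5 groups. The labels call the +Wnt tissue retinal pigment epithelium (RPE) and the +Fgf tissue neural retina. The deposited values are CPM, read counts scaled to a common library size. The libraries held between 12556998 and 16175450 reads, so that 1 read was worth 0.0620 to 0.0764 CPM.

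The choroid plexus is a folded epithelium in the ventricles of the brain that secretes cerebrospinal fluid. It develops from the roof plate beside the cortical hem, where Wnt and BMP ligands are made and the homeobox genes Msx1 and Msx2 respond to BMP. Its epithelial cells make transthyretin, which carries thyroxine and the retinol carrier RBP4, and they hold the water channel AQP1, the folate receptor FOLR1 and the chloride channel family protein CLIC6. Several of these genes are not restricted to it. RPE and liver or visceral endoderm also express Ttr, the meninges and RPE express Ptgds, and RPE expresses Enpp2.

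All 10 genes passed the filter on low values (at least 1 CPM in at least 3 libraries), but not equally. Folr1, Clic6, Enpp2 and Msx2 reached 1 CPM in all 15 libraries, Msx1 in 14, Aqp1 in 12, and Ttr and Ptgds in 9. Prlr reached it in 4 libraries, 3 of them Day 15 +Wnt and 1 Day 12 +Wnt, so that it too would not have been tested without Day 15 +Wnt. Tmem72 reached it only in the 3 Day 15 +Wnt libraries. Both thus entered the test through the group in which they were high.

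In Day 15 +Wnt tissue, 9 of the 10 genes were above Day 15 +Fgf in every library, without overlap. Msx2 was the exception, with overlapping values. Among all 13845 genes tested, 32.6% were above Day 15 +Fgf in all 3 Day 15 +Wnt libraries, and since the genes were picked for this group, nothing is read from the count. The median log2 difference of the 10 genes was 2.57, beside -0.05 for all genes tested. Against Day 12 +Wnt, 7 of the 10 were higher without overlap, beside 35.1% of all genes, and against Day 10 Rx::GFP+ 9 were higher, beside 40.1%, and 1 (Msx2) was lower, beside 40.5%.

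**Figure D1:**
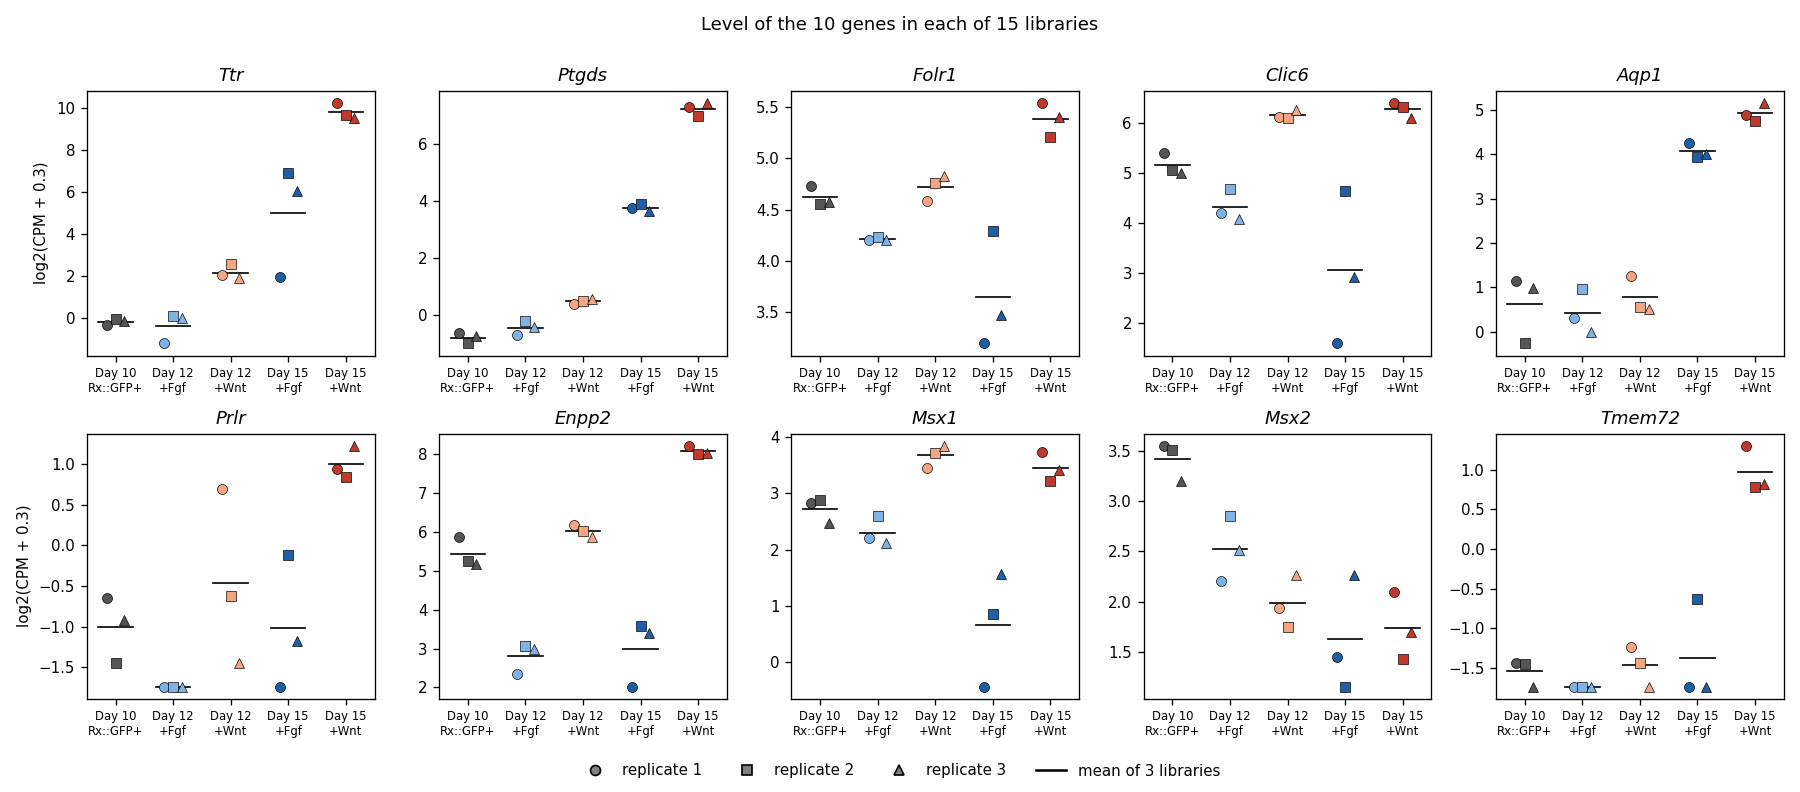
Values of the 10 genes in each of the 15 libraries as log2(CPM + 0.3), 1 panel per gene with its own vertical scale, markers by replicate number and a black line for the mean of the 3 libraries. Ttr and Ptgds were highest in Day 15 +Wnt, Msx1 was highest in both +Wnt groups, Msx2 was highest at Day 10, and the 3 Day 15 +Fgf libraries lay farthest apart for Ttr, Clic6 and Msx1 among the genes with reads in each of them.

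Ttr encodes the secreted carrier of thyroxine and retinol-binding protein. At Day 10 the 3 libraries held 0.477, 0.669 and 0.611 CPM, and in Day 12 +Fgf they held 0.127, 0.765 and 0.703 CPM. These groups overlapped, and all 6 values rest on 2 to 12 reads. In Day 12 +Wnt the values were 3.84, 5.57 and 3.38 CPM, above every library of both groups. Ttr had risen there against Day 10 by a log2 difference of 2.34 ± 0.80 (SE; 95% interval 0.64 to 4.04; limma adjusted p = 0.0191) and against Day 12 +Fgf by 2.54 ± 0.80 (adjusted p = 0.0144). Both calls were lost with edgeR (quasi-likelihood, on whole reads recovered from the CPM), at adjusted p = 0.179 against Day 10 and 0.169 against Day 12 +Fgf, and over all 26 alternatives the adjusted p ran from 7.31e-06 to 0.179 and from 3.29e-06 to 0.169. Both were also lost with a pseudocount of 1 (adjusted p = 0.0557 and 0.0531) and without Day 12 +Wnt replicate 2 (0.0611 and 0.0502), that against Day 10 with the RNA integrity number, a measure of RNA quality, as a covariate (0.0679), and that against Day 12 +Fgf without Day 12 +Fgf replicate 1 (0.0682).

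In Day 15 +Wnt the Ttr values were 1231, 806.5 and 749.2 CPM, a mean of 929 ± 263 (SD, n = 3). These came from 19847, 10815 and 10680 reads, and no library of another group came near them. In Day 15 +Fgf the values were 3.61, 120.5 and 66.6 CPM, a mean of 63.6 ± 58.5. Replicate 1 of that group lay inside the range of Day 12 +Wnt, and replicate 2 was 33.4 times as high as replicate 1. The Day 15 +Wnt mean was 14.6 times the Day 15 +Fgf mean and 218 times the Day 12 +Wnt mean. On the log2 scale the difference to Day 15 +Fgf was 4.84, with 3.33 without Day 15 +Fgf replicate 1 and 5.81 without replicate 2. Ttr had also risen from Day 12 to Day 15 in +Fgf, by 5.36 ± 0.80 (adjusted p = 2.73e-05), and this passed the threshold in all 26 alternatives (log2 difference 4.39 to 6.91, adjusted p 3.47e-10 to 0.0347). In bulk tissue a change in the number of cells that express a gene and a change in its RNA per cell cannot be told apart, which holds for every value here.

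The Day 15 +Fgf libraries were uneven for other genes as well. In the choroid plexus list described further on, 1500015O10Rik was at 0.148, 5.22 and 5.79 CPM in replicates 1 to 3, Slc4a10 at 0.0737, 1.37 and 1.41 CPM, and Sostdc1 at 0.590, 2.82 and 3.25 CPM, with replicate 1 the lowest as for Ttr. The first 2 of these were named after their values were seen, and the summed list was even, at 1024, 1036 and 1173 CPM. Other genes of the list went the other way. Slc4a5, at 34.2, 33.4 and 27.2 CPM, and Slc4a2, at 53.5, 51.0 and 49.8 CPM, were highest in replicate 1. The visceral endoderm and liver list (18 genes, all found) summed to 1.33 CPM in replicate 1, 107 CPM in replicate 2 and 3.68 CPM in replicate 3, against 3.07 to 5.01 CPM in the 6 libraries of Day 10 and Day 12 +Fgf. In replicate 2 Cubn, an endocytic receptor, stood at 31.5 CPM, Apob at 19.0, Apoa1 at 12.0, Apoa4 at 10.2 and Afp at 8.65 CPM, while Alb was at 0 reads and Apoa2, Fga, Fgb and Fgg were under 1 CPM. In replicate 3, where Ttr was at 66.6 CPM, the sum of this list lay within the range of the Day 10 and Day 12 +Fgf libraries. Several genes of the dorsal telencephalon were lowest in replicate 1, and the 9 listed summed to 277, 410 and 459 CPM in replicates 1 to 3. Neurod6, a factor of cortical neurons, was at 0.0737, 39.1 and 44.0 CPM, Tbr1 at 0.885, 26.2 and 41.2 CPM, and Emx1 at 0, 7.69 and 11.6 CPM. These telencephalic genes (9 in all) were chosen after the values had been seen. They were also present in Day 15 +Wnt, where Neurod6 was at 24.9, 35.6 and 56.0 CPM and Tbr1 at 176, 216 and 174 CPM. The RPE list (18 genes) differed little among the 3 Day 15 +Fgf libraries, with sums of 492, 588 and 584 CPM. The part of any of these tissues in the Ttr values was not tested.

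**Figure D2:**
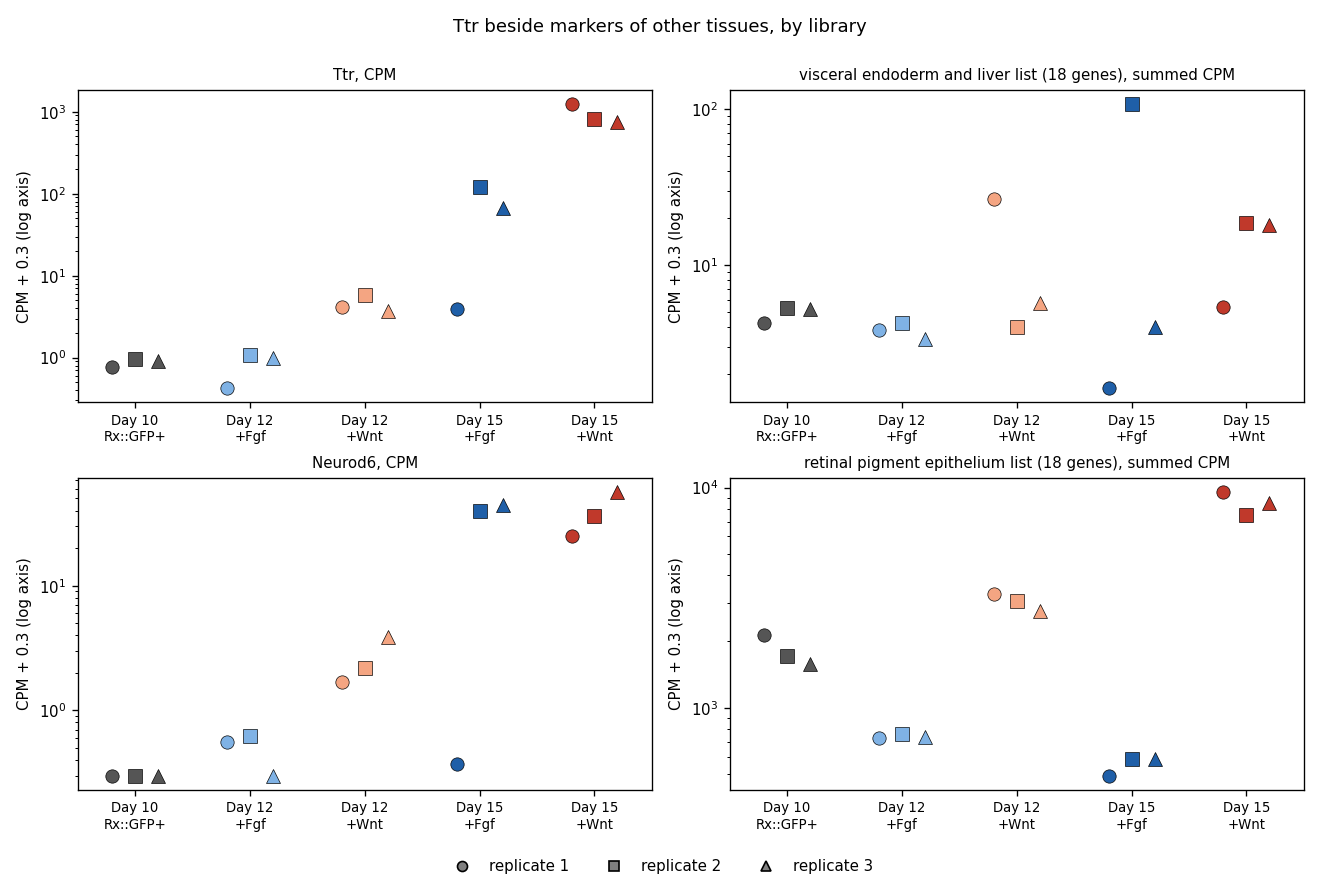
CPM + 0.3 on a log axis in each of the 15 libraries for Ttr, for the summed visceral endoderm and liver list, for Neurod6 and for the summed RPE list, with markers by replicate number. Replicate 2 of Day 15 +Fgf stands alone for visceral endoderm genes (107 CPM), replicate 1 of that group is low for both Ttr (3.61 CPM) and Neurod6 (0.0737 CPM), and the RPE sum in Day 15 +Wnt is 7474 to 9535 CPM.

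Where Ttr was highest, in Day 15 +Wnt, the same visceral endoderm list summed to 5.09, 18.3 and 17.8 CPM. At Day 10 it summed to 3.95 to 5.01 CPM. None of the 7 tested genes of the list passed the test against Day 15 +Fgf with limma, none at an unadjusted p under 0.05 and none with edgeR. That test uses a spread that holds Day 15 +Fgf replicate 2, at a sum of 107 CPM. It cannot decide whether these genes were raised in Day 15 +Wnt. The RPE list was at its highest there, with 14 of 14 tested genes higher than in Day 15 +Fgf, beside 30.6% of all genes. Gpr143, which encodes a receptor of the melanosome, stood at 27.3 ± 1.65 CPM against 0.232 ± 0.211 CPM (log2 difference 5.78, adjusted p = 9.68e-12) and Slc45a2, a melanosome transporter gene, at 58.7 ± 3.50 CPM against 1.36 ± 0.481 CPM (5.19, adjusted p = 2.59e-11), while Rpe65 and Rgr of the visual cycle, named after their values were seen, stayed at 3 reads or fewer in all 15 libraries. The part of visceral endoderm or of RPE in the level of Ttr was not tested.

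Ptgds makes prostaglandin D2 and, secreted as beta-trace, binds lipophilic molecules in cerebrospinal fluid. The gene lies on the minus strand at chr2:25466709-25470046 (GRCm38), with no exon of another gene over its exons. At Day 10 it was at 0.341, 0.201 and 0.306 CPM, and in Day 12 +Fgf at 0.317, 0.573 and 0.447 CPM, both on 3 to 9 reads a library. In Day 12 +Wnt it was at 1.01, 1.11 and 1.19 CPM, above all of these. Ptgds had risen in Day 12 +Wnt by 1.28 ± 0.17 against Day 10 (adjusted p = 6.55e-06) and by 0.92 ± 0.17 against Day 12 +Fgf (adjusted p = 0.000200).

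At Day 15 Ptgds was at 13.3, 14.7 and 12.4 CPM in +Fgf and at 158, 129 and 177 CPM in +Wnt. The 3 Day 15 +Fgf libraries agreed closely, replicate 2 being 1.11 times replicate 1, in contrast to the ratio of 33.4 for Ttr in the same libraries. From Day 12 to Day 15 in +Fgf Ptgds had risen by 4.22 ± 0.17 (95% interval 3.86 to 4.57; adjusted p = 1.18e-11). The Day 15 +Wnt mean of 155 ± 24.2 CPM was 11.5 times the Day 15 +Fgf mean and 140 times the Day 12 +Wnt mean. Ptgds therefore had high values at Day 15 under both stimulations, in the same order as Ttr but without its spread.

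Enpp2 encodes autotaxin, the secreted enzyme that makes lysophosphatidic acid. It lies on the minus strand at chr15:54838901-54952892, and 345 of its 5779 exonic bases overlap Gm26684 on the other strand. It differed from Ttr and Ptgds in that it was well expressed from the start, at 58.5, 37.5 and 35.7 CPM at Day 10. In Day 12 +Fgf it was at 4.82, 8.03 and 7.67 CPM, a fall of 2.63 on the log2 scale (SE 0.30; adjusted p = 1.87e-06), while in Day 12 +Wnt it was at 72.6, 64.8 and 58.2 CPM. The 2 stimulations were thus separated at Day 12 by 3.23 ± 0.30 (adjusted p = 1.31e-07), ahead of Ttr at 2.54 and Clic6 at 1.84. The value of Day 12 +Wnt against Day 10 was 0.60 ± 0.30 (adjusted p = 0.0945), with overlapping libraries. It passed with edgeR (0.0219), with the 6 compared libraries alone (0.00672) and without Day 10 replicate 1 (0.0396) or Day 15 +Fgf replicate 1 (0.00844), and over the alternatives the adjusted p ran from 0.00672 to 0.253.

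At Day 15 Enpp2 was at 3.76, 11.7 and 10.2 CPM in +Fgf and at 297, 258 and 261 CPM in +Wnt. The mean ratio between these groups was 31.8, above that of every other gene of the 10. Within +Fgf the change from Day 12 to Day 15 was 0.20 ± 0.30 (adjusted p = 0.596). Without Day 15 +Fgf replicate 1 it passed the threshold at 0.69 (adjusted p = 0.00841), and over all alternatives the adjusted p ran from 0.00841 to 0.994.

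Among the genes for uptake and transport, Folr1 (the folate receptor alpha, chr7:101858331-101870788, minus strand) moved least. It was at 26.3, 23.3 and 23.5 CPM at Day 10, at 18.1, 18.5 and 18.1 CPM in Day 12 +Fgf and at 23.7, 26.7 and 28.1 CPM in Day 12 +Wnt. In Day 15 +Fgf it was at 8.85, 19.2 and 10.8 CPM, and in Day 15 +Wnt at 46.3, 36.5 and 41.9 CPM. The Day 15 +Wnt libraries were the highest, and the 3 Day 15 +Fgf libraries reached from below all others to just above the range of Day 12 +Fgf. Folr1 was higher in Day 12 +Wnt than in Day 12 +Fgf by 0.51 ± 0.18 (adjusted p = 0.0292). That call was lost without any 1 of the 3 Day 12 +Fgf libraries or of Day 12 +Wnt replicates 2 and 3 and in moderation with no trend, and its adjusted p over all alternatives ran from 0.000529 to 0.0913. From Day 10 to Day 15 +Fgf Folr1 fell by 0.97 on the log2 scale (adjusted p = 0.000169), past the threshold in all 26 alternatives. From Day 12 to Day 15 in +Fgf it fell by 0.56 (adjusted p = 0.0159), a call lost without Day 15 +Fgf replicate 1 (0.104) or replicate 3 (0.0649) and with an adjusted p of 9.47e-06 to 0.108 over the alternatives.

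Clic6 (chr16:92485736-92541243, plus strand), of the chloride intracellular channel family, was at 42.0, 33.4 and 31.9 CPM at Day 10. It stood at 18.3, 25.5 and 16.7 CPM in Day 12 +Fgf and at 70.1, 69.0 and 76.7 CPM in Day 12 +Wnt, with no overlap among the 3 groups. The difference of +Wnt and +Fgf at Day 12 was 1.84 ± 0.45 (adjusted p = 0.00282). Against Day 10 the value of Day 12 +Wnt was 1.01 ± 0.45 (adjusted p = 0.0646), and it passed with edgeR (0.0121) and without Day 15 +Fgf replicate 1 (0.00526) or replicate 2 (0.00177), whose spread enters the shared estimate. In Day 15 +Wnt it was at 84.9, 79.9 and 68.8 CPM, overlapping Day 12 +Wnt, so its high level was already present 2 days after Wnt stimulation began. In Day 15 +Fgf it was at 2.73, 24.7 and 7.35 CPM, the second widest spread of the 10 genes after Ttr among those with reads in each library. Replicate 2, the library with visceral endoderm genes, was again the highest. The log2 difference of Day 15 +Wnt and Day 15 +Fgf was 3.22, and it was 2.49 without Day 15 +Fgf replicate 1 and 4.02 without replicate 2. Clic6 was called lower in Day 15 +Fgf than in Day 12 +Fgf (-1.27, adjusted p = 0.0251) although the libraries overlapped. That call was lost with edgeR (0.122) and without Day 15 +Fgf replicate 1 (0.161) or replicate 3 (0.0624) or Day 12 +Fgf replicate 2 (0.0839), with an adjusted p of 1.03e-05 to 0.257 over the alternatives.

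Aqp1 encodes the water channel of the choroid plexus apical membrane and lies on the plus strand at chr6:55336432-55348555. It was low in the first 3 groups, at 1.91, 0.535 and 1.68 CPM at Day 10, 0.951, 1.66 and 0.703 CPM in Day 12 +Fgf and 2.08, 1.18 and 1.13 CPM in Day 12 +Wnt. These groups overlapped. At Day 15 it was at 18.7, 15.0 and 15.8 CPM in +Fgf and at 29.2, 26.6 and 35.4 CPM in +Wnt. From Day 12 to Day 15 in +Fgf it rose by 3.63 ± 0.32 (adjusted p = 6.80e-08). Aqp1 and Ptgds were the 2 genes of the 10 with high and even values in both Day 15 groups, and the mean ratio of the stimulations was 1.84 for Aqp1 and 11.5 for Ptgds.

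Bases before the start of Ptgds and Aqp1 (the pair with even values in both Day 15 groups) and of Msx1 (which had the opposite course in +Fgf) were taken from RefSeq on GRCm38.p6, where windows of 250 bases before and 50 after a start were held for 6 of the 10 genes (8 windows). They are shown 5′ to 3′ on the gene's strand, without any base that GENCODE vM21 places in an exon. The Ptgds stretch is chr2:25469843-25469999 (minus strand, bases -250 to -94 from the start), the Aqp1 stretch is chr6:55336049-55336298 (plus strand) and the Msx1 stretch is chr5:37824586-37824835 (minus strand). The Ptgds stretch lies before the RefSeq start but inside the GENCODE span of the gene, between its exons. Capitals would mark a searched motif, and none was found in the 3 stretches.
Ptgds: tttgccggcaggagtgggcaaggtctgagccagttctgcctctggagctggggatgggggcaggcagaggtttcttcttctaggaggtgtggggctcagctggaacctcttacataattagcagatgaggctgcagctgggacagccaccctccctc
Aqp1: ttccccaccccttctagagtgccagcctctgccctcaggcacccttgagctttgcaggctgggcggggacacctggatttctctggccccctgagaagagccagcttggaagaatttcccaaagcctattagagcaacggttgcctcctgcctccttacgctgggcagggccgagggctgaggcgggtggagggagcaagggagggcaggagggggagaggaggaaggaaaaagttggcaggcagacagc
Msx1: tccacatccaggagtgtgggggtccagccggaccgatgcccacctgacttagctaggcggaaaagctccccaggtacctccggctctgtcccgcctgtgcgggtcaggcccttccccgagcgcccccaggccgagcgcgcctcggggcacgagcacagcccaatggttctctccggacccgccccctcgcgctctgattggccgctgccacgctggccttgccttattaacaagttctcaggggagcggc
Their G and C content was 59.2%, 62.0% and 68.0%, against a median of 52.4% over all 32851 windows. The OTX-like TAATCC occurred in none of the 8 windows on either strand and in 7.06% of all windows, and the E-box CACGTG in none and in 7.15%. The E-box CATGTG occurred in 1 of the 8 windows (14.2% of all) and the TCF/LEF-like CTTTGA in 1 (16.0% of all), both at Prlr. No match of one motif overlapped a match of another. A match or its absence describes the letters of these windows and nothing about a factor. Windows for Ttr, Folr1, Clic6 and Enpp2 were not used here.

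Prlr, the receptor of prolactin and placental lactogen, and Tmem72, a membrane protein gene known mainly from choroid plexus and kidney, were close to the limit of detection. Prlr (chr15:10177238-10349180, plus strand, with 203 of its 15339 exonic bases shared with Gm21973 on the same strand) had 0 reads in all 3 Day 12 +Fgf libraries, and 5, 1 and 3 reads at Day 10. In Day 12 +Wnt it had 21, 5 and 1 reads (1.32, 0.348 and 0.0662 CPM), and replicate 1 alone held most of them. That library also stood apart for visceral endoderm genes, with a list sum of 26.4 CPM against 3.69 and 5.43 CPM in the other replicates, and their part in the Prlr value was not tested. In Day 15 +Fgf it had 0, 9 and 2 reads, and in Day 15 +Wnt 26, 20 and 29 reads (1.61, 1.49 and 2.03 CPM), the only group with 20 or more reads in each library. Against Day 12 +Fgf the limma adjusted p of Day 12 +Wnt was 0.0285 for Prlr, which rests on a group at 0 reads and on a gene tested through Day 15 +Wnt, and it is not read as a change. The call was lost without that replicate 1 (adjusted p = 0.184) and without any 1 of the 3 Day 12 +Fgf libraries (0.0564 to 0.0635). No fold is given against a group at 0 because it would be set by the pseudocount.

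Tmem72 (chr6:116679063-116716913, minus strand) had 1, 1 and 0 reads at Day 10, none in Day 12 +Fgf, 2, 1 and 0 in Day 12 +Wnt and 0, 5 and 0 in Day 15 +Fgf. In Day 15 +Wnt it had 35, 19 and 21 reads, or 2.17, 1.42 and 1.47 CPM. The 5 reads in Day 15 +Fgf all came from replicate 2, the library with the highest Ttr of that group and with visceral endoderm genes. A level up to 3 reads a library cannot be told from none at this depth, so Tmem72 was not detectable in Day 10, Day 12 +Fgf and Day 12 +Wnt, and no difference among these groups is given.

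The homeobox genes Msx1 and Msx2, both targets of BMP signalling, differed under +Wnt and both fell under +Fgf by Day 15. Msx1 (chr5:37820485-37824583, minus strand) was at 6.81, 7.09 and 5.27 CPM at Day 10, at 4.31, 5.73 and 4.03 CPM in Day 12 +Fgf and at 10.7, 13.0 and 14.1 CPM in Day 12 +Wnt. The Day 12 +Wnt libraries lay above all of these, by 0.95 ± 0.34 against Day 10 (adjusted p = 0.0227) and by 1.37 ± 0.34 against Day 12 +Fgf (adjusted p = 0.00264). The first call was lost without Day 10 replicate 3 or Day 12 +Wnt replicate 2 or 3 and with the RNA integrity number as a covariate, with an adjusted p over all alternatives of 0.000318 to 0.221. At Day 15 it was at 0.442, 1.51 and 2.69 CPM in +Fgf, having fallen by 1.64 on the log2 scale from Day 12 (adjusted p = 0.000554, and 0.284 with the RNA integrity number as a covariate, the highest of its alternatives, of which the lowest was 1.66e-05), and at 13.1, 9.02 and 10.4 CPM in +Wnt. Msx1 in Day 15 +Wnt overlapped Day 12 +Wnt and was 7.01 times the Day 15 +Fgf mean. The log2 difference to Day 15 +Fgf was 2.79, with 2.24 without Day 15 +Fgf replicate 1 and 3.25 without replicate 3.

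Msx2 (chr13:53466884-53473074, minus strand) was highest at Day 10, at 11.5, 11.1 and 8.94 CPM. It was at 4.31, 6.95 and 5.43 CPM in Day 12 +Fgf and at 3.52, 3.06 and 4.5 CPM in Day 12 +Wnt, having fallen by 0.90 (adjusted p = 0.00727) and by 1.44 (adjusted p = 0.000145). At Day 15 it was at 2.43, 1.92 and 4.52 CPM in +Fgf and at 3.97, 2.39 and 2.95 CPM in +Wnt. These groups overlapped, and the log2 difference of 0.12 between them turned negative with quantile normalization (-0.33) and with the RNA integrity number as a covariate (-0.18). Msx2 in Day 15 +Wnt overlapped both Day 12 +Wnt and Day 15 +Fgf and lay below every Day 10 library.

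Taking the 10 genes by comparison, Day 12 +Wnt against Day 12 +Fgf had 7 higher and none lower (1 lower at an unadjusted p under 0.05, and 6 higher and none lower with edgeR), beside 25.2% of all genes higher and 26.3% lower. The 7 were Ttr, Ptgds, Folr1, Clic6, Enpp2, Msx1 and Prlr, of which Prlr was tested only through Day 15 +Wnt. Their number was 4 without Day 12 +Fgf replicate 1. The median log2 difference of the 10 was 1.10, beside 0.00 for all genes. Against Day 10, Day 12 +Wnt had 3 higher (Ttr, Ptgds, Msx1) and 1 lower (Msx2), beside 30.6% and 29.6% of all genes. Day 12 +Fgf against Day 10 had 2 lower (Enpp2 and Msx2), beside 27.8%, with 3 at an unadjusted p under 0.05 and 3 with edgeR. It had none higher, beside 27.9%, with none at an unadjusted p under 0.05 and none with edgeR. Ptgds (0.35, adjusted p = 0.0856) was called higher there with a pseudocount of 0.05 (0.0364) and without Day 12 +Fgf replicate 1 (0.0317), with 0.0317 to 0.346 over the alternatives. These 3 comparisons share libraries, so their counts are not independent of each other. Every Day 10 library had a lower RNA integrity number than every Day 12 library and every Day 15 +Wnt library. RNA quality therefore cannot be told apart from time and stimulation when these groups are compared with Day 10.

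In Day 15 +Fgf the 10 genes divided. Against Day 12 +Fgf 3 had risen (Ttr, Ptgds and Aqp1), beside 27.2% of all genes, and 4 had fallen (Folr1, Clic6, Msx1 and Msx2), beside 29.9%. With the RNA integrity number as a covariate the 3 rises remained and none of the 4 falls passed (adjusted p from 0.108 to 0.462). All 3 Day 15 +Fgf libraries had a lower RNA integrity number than each of the 3 Day 12 +Fgf libraries, so that RNA quality and time cannot be told apart in this comparison. Against Day 10 the same 3 had risen, beside 36.2%, and 5 had fallen (Folr1, Clic6, Enpp2, Msx1 and Msx2), beside 36.4%. These 8 calls held when any 1 of the 15 libraries was left out.

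**Figure D3:**
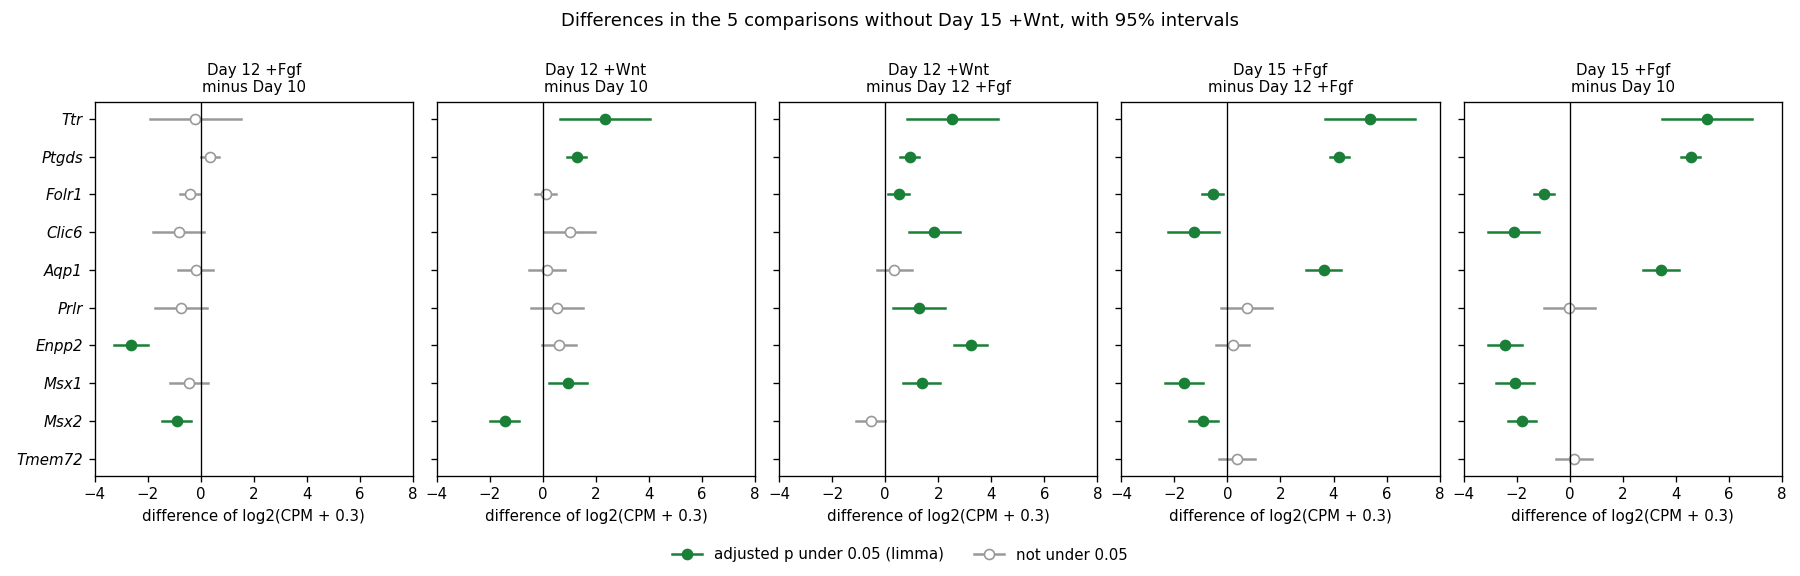
Differences of log2(CPM + 0.3) with 95% intervals for the 10 genes in the 5 comparisons without Day 15 +Wnt, filled green where the limma adjusted p was under 0.05 and open grey where it was not. Tmem72 is left out where both groups had 3 reads or fewer in every library, and Ttr has the widest intervals (3.66 to 7.06 in Day 15 +Fgf against Day 12 +Fgf).

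The order of the 10 genes by level was compared as CPM per kilobase of exon (GENCODE vM21). At Day 10 Folr1 (10.6 ± 0.740 CPM per kb), Clic6 (9.13 ± 1.39) and Enpp2 (7.59 ± 2.19) were highest, and Ttr, at 0.494 ± 0.0829 CPM per kb, stood in place 7. The spreads of Clic6 and Enpp2 overlapped. Without the division by length the order was the reverse, with Enpp2 at 43.9, Clic6 at 35.7 and Folr1 at 24.3 CPM. The order thus rests on the exon lengths used, while the authors counted on UCSC genes. In Day 15 +Wnt Ttr was in place 1 at 783 ± 222 CPM per kb, followed by Ptgds at 93.7 ± 14.7, Enpp2 at 47.1 ± 3.73, Clic6 at 19.9 ± 2.11 and Folr1 at 18.1 ± 2.12. The last 2 differed by less than their spread. Prlr and Tmem72 had the lowest levels per kilobase there, 0.112 ± 0.0186 and 0.0982 ± 0.0245 CPM per kb, over annotated exon lengths of 15339 and 17177 bases.

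The gene whose log2 values followed those of Ttr most closely over the 15 libraries was Rabgap1l (Pearson r = 0.98, Spearman rho = 0.93), followed by Papss1, Aldoc, Nsg1 and Psd (r 0.97 to 0.98), of 11041 genes compared. For Ptgds it was Bsg (r = 0.99, rho = 0.98), the cell surface protein basigin, followed by Rgs11, Hip1r, Pdzd4 and Eif4a2 (r 0.99). Mean Bsg was 342 CPM at Day 10, 575 CPM in +Fgf at Day 15 and 960 CPM in +Wnt at Day 15, a course like that of Ptgds in order but far smaller in size. Ttr and Ptgds correlated at r = 0.96, and Ptgds and Aqp1 at r = 0.95. Clic6 (r = 0.31 with Ttr), Msx1 (0.15) and Msx2 (-0.63) did not follow Ttr. These values describe 15 points in 5 groups that share libraries and depth, and they carry no test.

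Other genes of the choroid plexus epithelium were read from a list of 26 that held none of the 10 genes. Of the 25 found, 23 were tested, and in Day 15 +Wnt against Day 15 +Fgf 18 were higher, beside 30.6% of all genes, 2 were lower (Cldn1 and F5), beside 38.0%, and 3 did not pass (Steap1, Slc12a2 and Ace). The median log2 difference of the list was 1.62, beside -0.05 for all genes. Some genes of this list are also expressed by RPE. The RPE list had 14 of 14 tested genes higher in the same comparison. The part of RPE in the choroid plexus count was not tested. All 3 Day 15 +Wnt libraries had a higher RNA integrity number than each Day 15 +Fgf library, so RNA quality and stimulation cannot be told apart in the list counts of this comparison. With that number as a covariate the genes called over the whole table went from 4238 to 2798 higher and from 5267 to 3564 lower, and the choroid plexus list had 13 higher and 1 lower. Sostdc1, a secreted BMP and Wnt antagonist, stood at 32.3 ± 5.07 CPM against 2.22 ± 1.43 CPM (log2 difference 3.92, adjusted p = 1.82e-07), and Lmx1a, a roof plate transcription factor, at 23.7 ± 3.63 CPM against 1.24 ± 0.955 CPM (4.15, adjusted p = 5.79e-08). The bicarbonate transporter gene Slc4a5, named here after its values were seen, stood at 343 ± 32.7 CPM against 31.6 ± 3.83 CPM (3.43, adjusted p = 1.51e-10). Kl and Cldn2, known from the differentiated plexus, were chosen after their values were seen. Kl was at most 0.496 CPM in any library, and Cldn2 was at 1.24, 1.12 and 1.26 CPM in Day 15 +Wnt. Cldn2 is counted among the 18 but passed the filter on low values only through those 3 libraries. Slc4a10 is counted among the 18 as well. Outside Day 15 +Wnt it reached 1 CPM only in Day 15 +Fgf replicates 2 and 3 (1.37 and 1.41 CPM), too few for the filter. Both genes were thus tested through the group in which they were high, and this limit applies to every count of this list.

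Between Day 12 and Day 15 in +Wnt, 15 genes of that list were higher and 3 lower (beside 32.5% and 35.5% of all genes). Sostdc1 rose from 5.71 ± 0.409 CPM (2.43, adjusted p = 4.15e-05), while Lmx1a was at 25.3 ± 4.77 CPM already at Day 12 (-0.09, adjusted p = 0.851). Against Day 10, 16 were higher and 5 lower, beside 39.6% and 40.2%. At Day 12 the list had 14 higher and 3 lower in +Wnt than in +Fgf, beside 25.2% and 26.3%, and 2 higher and 10 lower in +Fgf than at Day 10, beside 27.9% and 27.8%. All 13 tested genes of the cortical hem and roof plate list, which also holds Lmx1a, were higher in Day 15 +Wnt than in Day 15 +Fgf, among them Rspo1 (78.7 ± 11.0 against 2.02 ± 2.02 CPM) and Rspo2 (109 ± 21.9 against 5.01 ± 4.19 CPM), which encode Wnt potentiators. Between Day 12 and Day 15 in +Wnt 1 of these 13 was higher and 2 were lower. Clic6 and Msx1 likewise overlapped between the +Wnt groups of both days, whereas Ttr, Ptgds and Aqp1 did not.

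Of the multiciliated cell list 10 genes were tested, of which 4 were higher in Day 15 +Wnt than in Day 15 +Fgf and 5 lower, beside 30.6% and 38.0% of all genes, shares that apply to every list in this comparison. With the RNA integrity number as a covariate it had 4 higher and 1 lower. The higher ones included the early regulators Foxj1 (23.4 ± 2.75 against 2.45 ± 0.691 CPM) and Gmnc (14.3 ± 3.65 against 0.301 ± 0.278 CPM), and the lower ones included the axoneme genes Ccdc39 (8.03 ± 1.24 against 12.4 ± 0.386 CPM) and Rsph1 (3.37 ± 0.205 against 5.94 ± 1.11 CPM), the last pair named after their values were seen. That pair was nevertheless higher in each Day 15 +Wnt library than at Day 10, where Ccdc39 was at 4.23, 4.21 and 4.51 CPM and Rsph1 at 0.136, 0.468 and 0.306 CPM. Gmnc was at 33.4 ± 5.95 CPM in Day 12 +Wnt, above its Day 15 +Wnt level. In the meninges and mesenchyme list 12 of 16 tested genes were higher and 1 lower, with the matrix proteoglycan genes Dcn at 111 ± 12.5 against 2.28 ± 1.51 CPM and Lum at 51.7 ± 9.15 against 1.39 ± 1.26 CPM. The meninges also express Ptgds, and the part of such cells in its level was not tested. The ciliary margin list, of tissue between retina and RPE and sharing Bmp4, Bmp7, Wnt2b and Zic1 with the hem list, had 7 higher, led by Gja1 (1750 ± 118 against 141 ± 32.5 CPM), and 3 lower, led by Sfrp2 (49.4 ± 1.60 against 934 ± 83.7 CPM). In the neural crest list 1 of 8 was higher (Tfap2b) and 2 lower, Ngfr among them, and with that covariate 0 and 1.

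**Figure D4:**
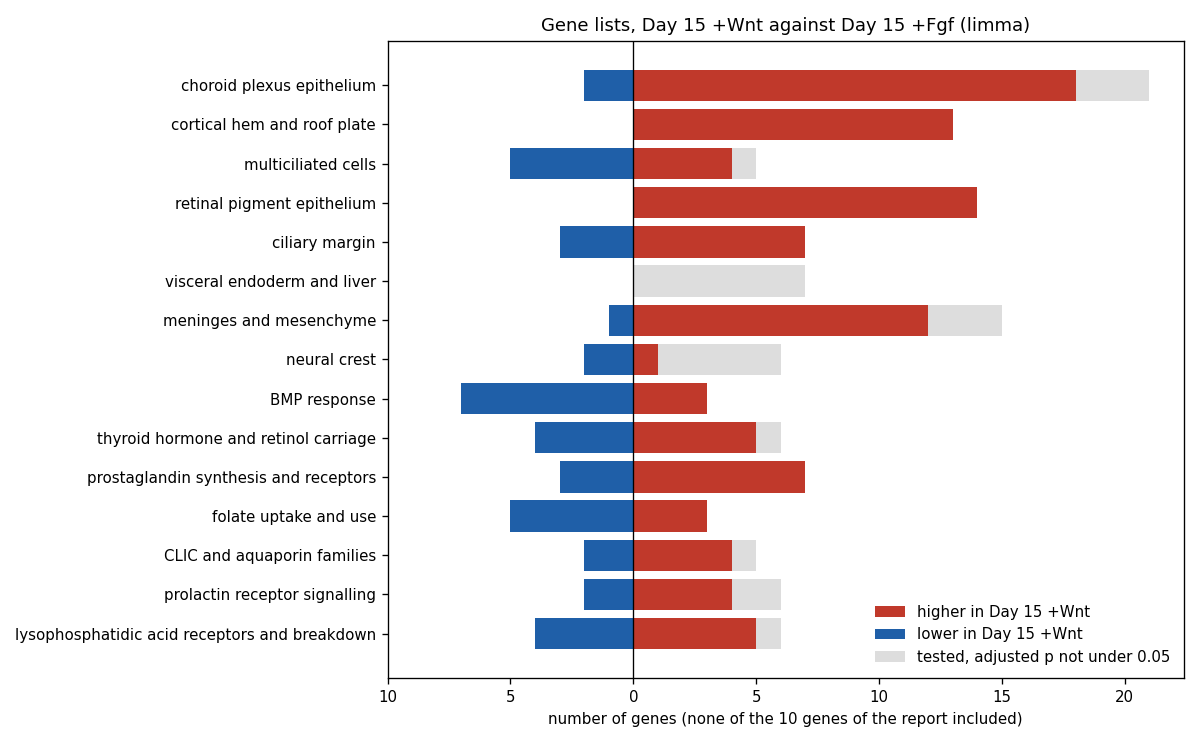
Numbers of genes of each list that were higher (red, to the right) or lower (blue, to the left) in Day 15 +Wnt than in Day 15 +Fgf at a limma adjusted p under 0.05, with tested genes that did not pass in grey. The choroid plexus list has 18 higher and 2 lower, the cortical hem list 13 and 0, the BMP response list 3 and 7.

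The partners of the 10 genes were read in the same comparison. Among 10 genes for the carriage and use of thyroid hormone and retinol, the cargo of transthyretin, 5 were higher and 4 lower in Day 15 +Wnt. The thyroxine transporter gene Slco1c1 was at 7.38 ± 1.69 against 1.03 ± 0.910 CPM (log2 difference 2.73, adjusted p = 2.68e-05), and Dio3, whose enzyme inactivates thyroid hormone, at 0.340 ± 0.0380 against 21.6 ± 1.86 CPM (-5.09, adjusted p = 1.70e-13). Slco1c1 had at most 10 reads in a library at Day 10, 8 in Day 12 +Wnt and 29 in Day 15 +Fgf. It may thus have entered the test through Day 15 +Wnt, where it was high. Of 10 genes of prostaglandin synthesis and reception 7 were higher and 3 lower. The higher ones held both Ptges, which makes prostaglandin E2 (13.3 ± 1.67 against 1.80 ± 0.313 CPM), and Hpgd, which degrades prostaglandins (12.7 ± 1.84 against 1.69 ± 0.620 CPM). Ptger2, a prostaglandin E2 receptor gene, had 3 reads or fewer in every library.

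Folate genes apart from Folr1 had 3 higher and 5 lower of 8. The lower ones included Tyms, which serves DNA synthesis (47.2 ± 2.48 against 84.1 ± 6.16 CPM; -0.83, adjusted p = 1.30e-09). In the CLIC and aquaporin families 4 of 7 tested genes were higher and 2 lower. Aqp3, which also conducts glycerol, was at 16.5 ± 2.25 against 0.511 ± 0.509 CPM (4.54, adjusted p = 9.82e-09), and Aqp8 at 9.0 ± 2.39 against 1.15 ± 1.38 CPM (3.2, adjusted p = 0.000787). Aqp8 had at most 5 reads in a library at Day 10, 60 in Day 12 +Wnt and 39 in Day 15 +Fgf. It too may have entered the test through Day 15 +Wnt. Aqp2 and Aqp12 had 0 reads in all 15 libraries.

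Around the prolactin receptor, Prl itself had 0 reads in all 15 libraries. Of 8 tested genes of that list 4 were higher and 2 lower, with the feedback inhibitor genes Socs2 at 47.7 ± 1.18 against 36.0 ± 5.27 CPM (0.41, adjusted p = 0.0117) and Socs3 at 12.5 ± 0.528 against 21.7 ± 1.46 CPM (-0.78, adjusted p = 1.99e-05). Among receptors and breakdown enzymes of lysophosphatidic acid, the product of autotaxin, 5 of 10 were higher and 4 lower. The receptor genes Lpar1 (27.1 ± 1.02 against 66.6 ± 3.61 CPM; -1.29, adjusted p = 3.11e-11) and Lpar2 (29.8 ± 1.24 against 14.5 ± 1.17 CPM; 1.03, adjusted p = 2.34e-08) moved in opposite directions. Of 10 BMP response genes, the pathway upstream of Msx1 and Msx2, 3 were higher and 7 lower, and with the RNA integrity number as a covariate 2 and 3. The lower ones included Id1 (88.2 ± 10.7 against 194 ± 7.7 CPM; -1.14, adjusted p = 6.48e-08) and Bambi (9.96 ± 1.44 against 24.8 ± 7.0 CPM; -1.26, adjusted p = 3.76e-05). At Day 10 Id1 was at 87.1 ± 12.0 CPM and Bambi at 20.9 ± 1.07 CPM. Against Day 10 the BMP response list had 3 higher and 4 lower in Day 15 +Wnt, beside 39.6% and 40.2% of all genes. In Day 15 +Fgf it had 5 higher and 2 lower, beside 36.2% and 36.4%.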

How the data were processed

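RNA-Seq libraries of 15 samples, 3 in each of 5 groups, were used, and samples were assigned to groups from their labels. The deposited values are a normalised signal that the authors call CPM. Per the labels and the methods of the study, paired reads were aligned by the authors with TopHat2 2.0.8b to mm10, fragments of UCSC genes were estimated with Cuffdiff (Cufflinks 2.1.1) and normalisation used edgeR 3.2.4. The libraries were prepared with a stranded kit, and the strand setting of the counting is not given in the sources used here. Columns summed to 936418 to 1075448. Dividing by the smallest step of a column gave whole reads, within 0.01 reads, for 100% of the values above 0. The replicates are described as biological, and no further detail of separate cultures was used, so p-values measure the spread among these libraries.

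Tests were run with limma 3.58.1 in R 4.3.3 on log2(value + 0.3), where a difference understates the change of low genes. One model of 5 group means was fitted with a mean-variance trend, two-sided, with Benjamini-Hochberg adjustment over all 13845 genes tested (those reaching 1 CPM, relative to the column total, in 3 libraries or more) and a threshold of 0.05. edgeR 4.0.16 on recovered reads was an alternative. RNA integrity numbers of the libraries, used as a covariate in another alternative, came from the study's methods. The procedure was tested on simulated data. Groups with 3 reads or fewer in each library were treated as not detected, which covers counting error only.

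The 10 genes, the 15 gene lists and the tests were chosen with earlier results of these data known. The text names all 10 genes. From each list it names the 2 genes with the largest difference between Day 15 +Wnt and Day 15 +Fgf among genes that passed and whose higher group averaged 5 CPM or more, and for Ttr and Ptgds the 5 genes with the highest r among genes with at least 10 CPM in the highest group. Exceptions are stated, and 1 gene that the rule names is not reported here. Positions and lengths come from GENCODE vM21 on GRCm38, the assembly also called mm10. Analyses used Python 3.11.15 with NumPy 2.4.6, pandas 2.3.3 and matplotlib 3.10.9.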

Additional observations from a re-analysis of the deposited data

How the results depend on the processing

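The alternatives were a pseudocount of 0.05 or 1, no filter or a filter of 10 CPM in 3 libraries, scaling by quantiles or by the median of ratios, no trend in the moderation, the RNA integrity number as a covariate, a block for the replicate number, fits of the 6 compared libraries alone, edgeR on whole reads, and leaving out each library. Of the 10 genes, 2 passed in Day 12 +Fgf against Day 10, and this became 4 with a pseudocount of 0.05, 1 with the filter of 10 CPM (fewer genes tested) and 4 with only the 6 libraries. In Day 12 +Wnt against Day 10 the number fell from 4 to 2, and in Day 15 +Fgf against Day 12 +Fgf from 7 to 3, with the RNA integrity number as a covariate. The cause was not tested, and in both comparisons the RNA integrity numbers of the compared groups did not overlap. Leaving out 1 library gave 2 to 4 in Day 12 +Fgf against Day 10 (4 without Day 15 +Fgf replicate 1 or 2), 2 to 6 in Day 12 +Wnt against Day 10 (2 without Day 12 +Wnt replicate 2), 4 to 8 in Day 12 +Wnt against Day 12 +Fgf (4 without Day 12 +Fgf replicate 1), 5 to 7 in Day 15 +Fgf against Day 12 +Fgf and 8 to 8 in Day 15 +Fgf against Day 10. For the choroid plexus list it gave 16 to 19, 18 to 20 and 17 to 21 in Day 15 +Wnt against Day 12 +Wnt, Day 15 +Fgf and Day 10, and the filter of 10 CPM gave 13 in place of 21 against Day 10, with 15 genes tested in place of 23.

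The replicate numbers did not pair the samples: in 0 of 10 pairs of groups did all same-numbered libraries correlate above 0.1 (range -0.253 to 0.245). With the replicate block the numbers were 2, 4, 7, 7 and 8 of the 10 genes in the 5 comparisons and 18, 19 and 21 of the choroid plexus list.

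Direction turned, among the 10 genes and the alternatives run, in values that were not called or not tested. Quantile normalization gave -0.0155 and the RNA integrity number as a covariate gave -0.0422 for Enpp2 in Day 15 +Fgf against Day 12 +Fgf, and -0.33 and -0.18 for Msx2 in Day 15 +Wnt against Day 15 +Fgf. For Prlr in Day 15 +Fgf against Day 10 a pseudocount of 1 gave 0.0237 and edgeR 0.29. Leaving out 1 library gave -0.43 to 0.23 for Ttr and -0.63 to 0.0688 for Aqp1 in Day 12 +Fgf against Day 10, -0.29 to 0.41 for Aqp1 and -0.0353 to 1.04 for Prlr in Day 12 +Wnt against Day 10, -0.46 to 0.35 for Prlr in Day 15 +Fgf against Day 10, -0.10 to 0.69 for Enpp2 in Day 15 +Fgf against Day 12 +Fgf and -0.12 to 0.44 for Msx2 in Day 15 +Wnt against Day 15 +Fgf. Quantile normalization moved the median of all genes by -0.10 in Day 15 +Wnt against Day 10. Depth limits Prlr and Tmem72, and Ttr and Ptgds before Day 15.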
